A study of Mus musculus with 2 samples.

Results

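Axon guidance ligands and receptors were followed in the adult mouse cortex. The members were chosen by gene symbol: the class 3 to class 7 semaphorins, plexins, neuropilins, ephrins, Eph receptors, Slits, Robos, netrins, netrin-Gs, Dcc and the Unc5 receptors. The rule matched 74 of the 55536 annotated genes. Of these, 71 were protein coding, 37 ligands and 34 receptors, and 3 were RNAs annotated antisense to Plxna4. The gene levels played no role in the rule. Total RNA of the left cerebral cortex was sequenced from 2 female B6CASTF1/J mice, 8 to 10 months old and without a stated treatment, with 1 library per mouse. B6CASTF1/J is the hybrid of the C57BL/6J and CAST/EiJ strains. The mice are called replicate 1 (animal 1 in the labels) and replicate 2 (animal 5). They form a single group, so no contrast could be tested, and each value is given for both mice.

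Axon guidance cues are secreted or membrane-bound proteins that attract or repel growing axons through receptors on the growth cone. Semaphorins act through plexins and neuropilins, ephrins through Eph receptor tyrosine kinases, Slits through Robo receptors, and netrin-1 through Dcc and the Unc5 receptors. In the adult cortex many of them remain expressed and are known for roles at synapses, dendritic spines, glia and blood vessels.

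The libraries held 28327434 (replicate 1) and 30234441 (replicate 2) estimated read counts in all. Gene levels are in TPM, a unit scaled to transcript length and library total, which allows levels of different genes to be compared. Markers of cortical cell types were present in both mice: the 5 excitatory neuron markers summed to 2217 and 2390 TPM and the 6 inhibitory neuron markers to 675 and 648 TPM in replicates 1 and 2. The mice stood apart in other lists. All 7 immediate early genes, which neuronal activity induces, were lower in replicate 2, with summed levels of 365 and 92.4 TPM. All 5 choroid plexus markers were lower in replicate 2 as well (180 and 60.3 TPM), with Ttr at 172 and 55.7 TPM. All 5 markers of the meninges were higher in TPM in replicate 2 (61.9 and 76.2 TPM). The 6 listed striatal markers, some of which cortical cells also express, summed to 637 and 706 TPM, and carry-over of neighbouring tissue was not tested. No marker of these lists was at 0.

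Nearly all of the pathway was expressed. At 1 TPM or more in both mice, 68 of the 71 coding members were detected, which is 95.8%, beside 58.9% of all protein-coding genes. The median level of the detected members was 13.2 TPM, and that of all detected protein-coding genes was 16.6 TPM. In both mice 54 members reached 5 TPM, 23 reached 20 TPM and 4 reached 50 TPM. The 3 members under 1 TPM were Epha1 (5 and 2 counts in replicates 1 and 2), Efna4 (7 and 4 counts) and Epha2 (44 and 31 counts). Epha2 was at 0.64 and 0.61 TPM, but the second transcript quantification put it at 1.56 and 2.09 TPM. The 3 antisense RNAs of Plxna4 were nearly absent: Plxna4os1 had 2 and 6 counts, and Plxna4os2 and Plxna4os3 had 0, where 3 counts would have been at most 0.0818 TPM for Plxna4os2 and 0.920 TPM for Plxna4os3 in replicate 2.

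The receptors summed to 731 ± 33.9 TPM and the ligands to 598 ± 48.7 TPM (SD, n = 2). By sum the 14 Eph receptors were the most abundant receptor class, at 279 and 315 TPM in replicates 1 and 2. The 9 plexins followed at 223 and 226 TPM. Per gene the order was the reverse, with a median of 25.3 TPM for the plexins and 13.7 TPM for the Eph receptors. The 20 semaphorins summed to 323 and 360 TPM, more than the 8 ephrins at 122 and 138 TPM, while their median was lower (9.67 against 12.4 TPM). The netrins were the scarcest ligand family in the first table, at 15.3 and 18.1 TPM, and by mean level the class 5 semaphorins were in the second (15.3 TPM against 16.6 TPM for the netrins). The highest members were Sema7a, Epha4, Robo2 and Ephb6 by mean level. The places of Robo2 and Ephb6 depend on transcripts under 1000 nt. These held 27.8% and 34.2% of the Robo2 level in replicates 1 and 2, on 2.85% and 3.99% of its counts. Of the Ephb6 level they held 28.4% and 28.1%, on 3.74% and 3.80% of its counts.

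**Figure D1:**
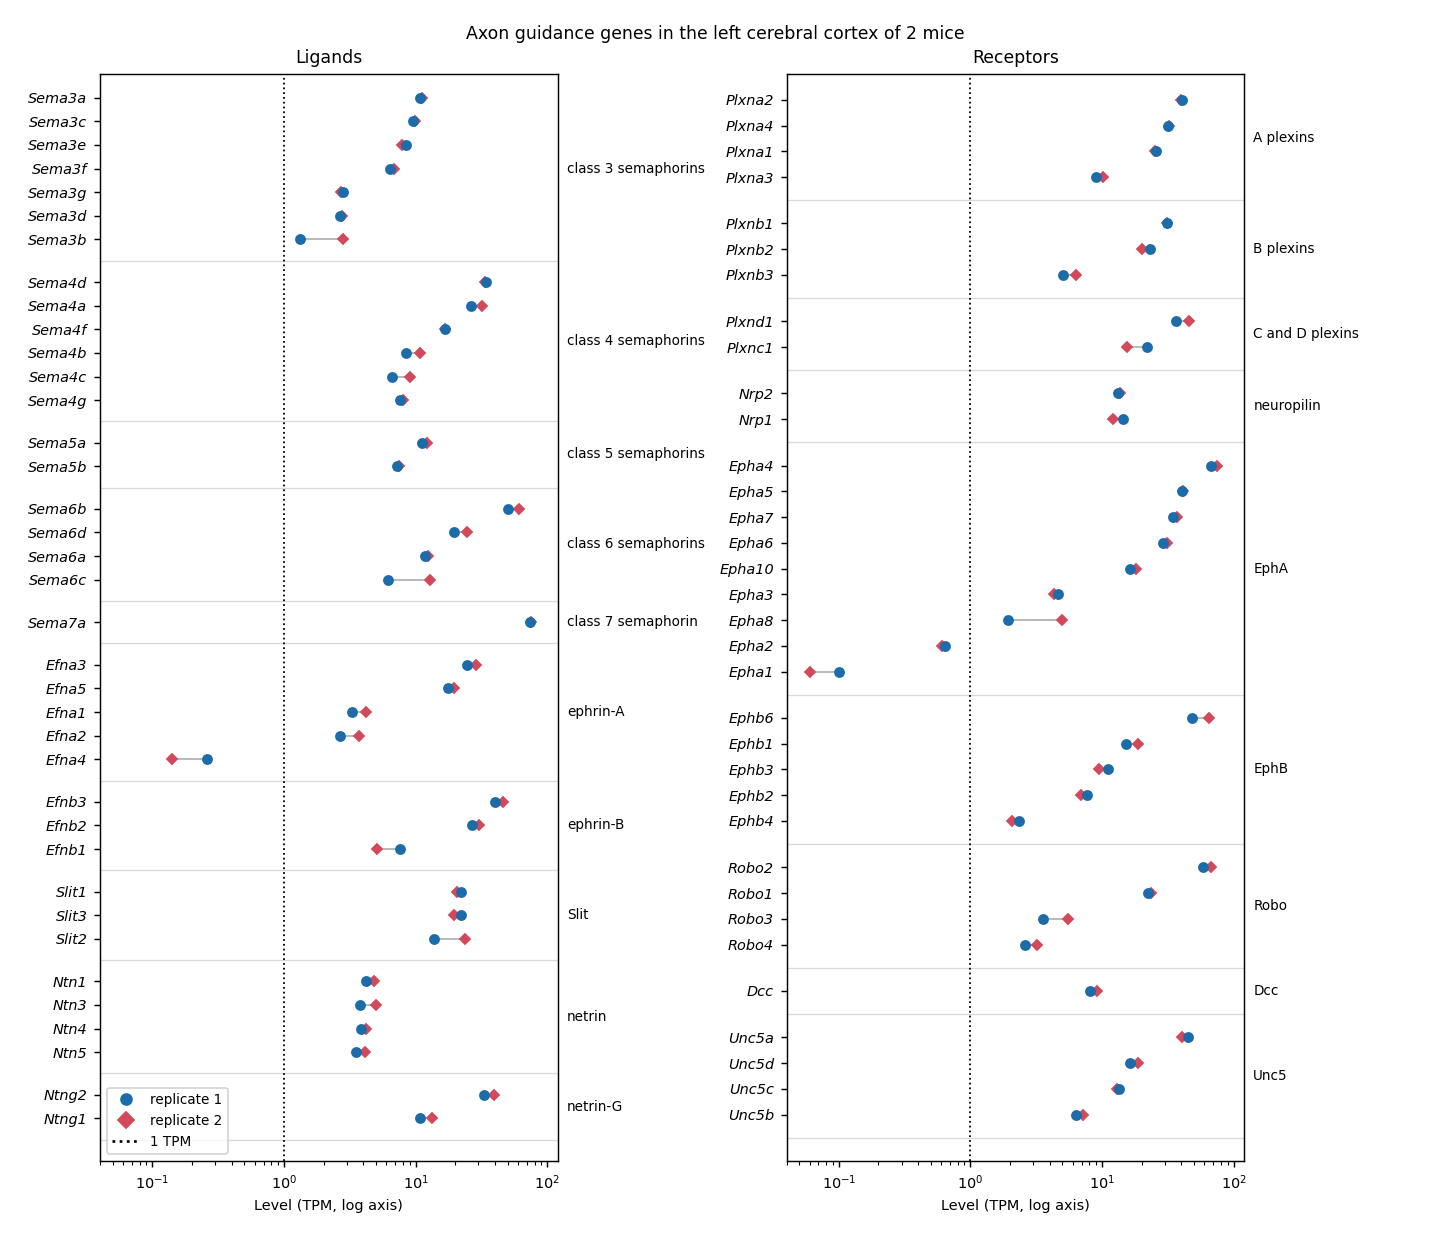
Level of each of the 71 coding members in TPM (log axis), with replicate 1 as circles, replicate 2 as diamonds and a line joining them; the dotted line marks 1 TPM. Sema7a, Epha4, Robo2 and Ephb6 lie farthest right by mean level, and 3 members lie left of the dotted line in both mice. Among the members right of that line, the symbols stand well apart in Epha8, Slit2, Sema6c and Sema3b.

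Among the semaphorins, the membrane-bound classes 4, 6 and 7 each summed to more than the secreted class 3, and the pair of class 5 to less. Sema7a, which is anchored to the membrane by a lipid and binds plexin C1 and integrins, was at 74.3 and 75.2 TPM (chromosome 9, 57940112 to 57962865, plus strand). That was the highest mean level of any member in the first table, and the mice differed by less than 1 TPM. In the second table Robo2 was higher, at a mean of 75.5 TPM against 65.5 TPM for Sema7a. That order depends on transcripts under 1000 nt. In the second table they held 49.6% and 54.4% of the Robo2 level, and 4.12% and 0.851% of the Sema7a level. The plexin receptor of Sema7a, Plxnc1, was at 22.0 and 15.4 TPM. Of the class 6 semaphorins, transmembrane ligands of the A plexins, Sema6b was at 50.4 and 61.5 TPM, Sema6d at 19.7 and 24.4 TPM, Sema6a at 11.9 and 12.4 TPM and Sema6c at 6.20 and 12.9 TPM. All 4 were higher in replicate 2, and Sema6b alone made up 56.1% of the class. Of the class 4 semaphorins, also transmembrane, Sema4d was at 34.5 and 33.7 TPM, Sema4a at 26.5 and 32.0 TPM and Sema4f at 16.8 and 16.6 TPM, while Sema4g was lowest by mean level at 7.60 and 8.01 TPM. Sema4b (8.51 and 10.7 TPM) and Sema4c (6.64 and 9.05 TPM) lay near it, and Sema4c was below it in replicate 1. Sema4d is the ligand of plexin B1. Of the class 5 pair, which carry thrombospondin repeats, Sema5a was at 11.2 and 12.2 TPM and Sema5b at 7.21 and 7.46 TPM.

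The 7 secreted class 3 semaphorins together reached 41.9 and 44.0 TPM, less than Sema7a alone. Sema3a, the ligand of neuropilin-1, was at 10.8 and 11.1 TPM. Sema3c was at 9.62 and 9.81 TPM and Sema3e, which binds plexin D1 without a neuropilin, at 8.45 and 7.90 TPM. In TPM these 3 differed by less than 1 unit between the mice. Sema3f, a ligand of neuropilin-2, was at 6.33 and 6.86 TPM, and Sema3d and Sema3g each lay between 2.64 and 2.81 TPM in both mice. The lowest was Sema3b at 1.32 and 2.81 TPM on 75 and 100 counts.

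Each mouse held every plexin. Among the A plexins, which transduce class 3 and class 6 signals, Plxna2 was at 40.2 and 39.6 TPM, Plxna4 at 31.5 and 32.1 TPM, Plxna1 at 25.5 and 25.1 TPM and Plxna3 at 8.96 and 10.2 TPM. Plxna4 (chromosome 6, 32144268 to 32588192, minus strand) had 7084 and 7569 counts, and 1 transcript, Plxna4-201, took 96.9% and 97.6% of its level. Of the B plexins, Plxnb1 was at 31.1 and 31.0 TPM, Plxnb2 at 23.1 and 20.2 TPM and Plxnb3 at 5.01 and 6.29 TPM. In the second table Plxnb2 was lower, at 13.8 and 13.6 TPM. Plxnd1, the receptor of Sema3e, was at 36.2 and 45.8 TPM. Of the neuropilins, the ligand-binding partners of the A plexins, Nrp2 was at 13.2 and 13.7 TPM and Nrp1 at 14.4 and 12.1 TPM, higher than Plxna3 and Plxnb3 in both mice. The mean levels were close, at 13.4 TPM for Nrp2 and 13.2 TPM for Nrp1. The order changed between the mice, since Nrp1 was the higher in replicate 1 and Nrp2 in replicate 2.

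Among the ephrins, 2 of the 3 transmembrane B ephrins exceeded every lipid-anchored A ephrin by mean level in the first table. In the second table Efna3 (28.8 TPM) was above Efnb2 (26.9 TPM). Efnb3 was at 39.9 and 45.7 TPM, Efnb2 at 26.7 and 30.4 TPM and Efnb1 at 7.57 and 5.09 TPM. Of the A ephrins, Efna3 was at 24.6 and 29.0 TPM and Efna5 at 17.5 and 19.5 TPM. Efna1 (3.27 and 4.16 TPM) and Efna2 (2.66 and 3.68 TPM) were far lower, and Efna4 was at 0.26 and 0.14 TPM.

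Epha4, a receptor that binds ephrins of both classes and is known for limiting dendritic spines, was the highest Eph receptor at 67.2 and 74.8 TPM (chromosome 1, 77367185 to 77515088, minus strand). It held 34.9% of the level of the 9 EphA genes and ranked above 93.0% of protein-coding genes. Epha5 followed at 40.5 and 41.1 TPM, Epha7 at 34.8 and 37.1 TPM, Epha6 at 29.0 and 31.1 TPM and Epha10, which lacks kinase activity, at 16.2 and 18.2 TPM. The mice kept the same order over these 5 genes in the first table, while in the second Epha7 was level with Epha5 in replicate 2 (33.9 and 33.6 TPM). Epha3 was at 4.66 and 4.28 TPM, and Epha8 at 1.94 and 4.97 TPM. Among the EphB genes, Ephb6 led with 48.1 and 65.1 TPM, 60.6% of the family, and its product also lacks kinase activity. Ephb1 was at 15.3 and 18.9 TPM, Ephb3 at 11.0 and 9.46 TPM, Ephb2 at 7.66 and 6.86 TPM, and Ephb4, known from vein endothelium, lowest at 2.32 and 2.08 TPM.

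The 3 Slits were expressed at similar levels. Slit1 was at 22.2 and 20.6 TPM, Slit3 at 22.3 and 19.7 TPM and Slit2 at 13.9 and 23.7 TPM. By TPM Slit2 was thus the lowest in replicate 1 and the highest in replicate 2. Transcripts under 1000 nt held 23.3% and 31.8% of the Slit2 level, on 2.77% and 3.97% of its counts. They held 2.84% and 6.54% of the Slit1 level and 7.36% and 15.3% of the Slit3 level. The first place of Slit2 in replicate 2 depends on them. Of the Robo family, Robo2 (chromosome 16, 73891839 to 74411825, minus strand) was at 58.7 and 67.3 TPM and took 67.4% of the Robo level. Robo1 was at 22.3 and 23.6 TPM, Robo3, known from axons that cross the midline, at 3.56 and 5.53 TPM, and Robo4, a gene of endothelium, at 2.61 and 3.18 TPM. The endothelial markers summed to 53.1 and 49.9 TPM. The Robo family thus held a wide range, while the Slits did not.

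The netrins lay close together. Ntn1 was at 4.21 and 4.80 TPM, Ntn3 at 3.75 and 5.00 TPM, Ntn4, which binds laminins, at 3.81 and 4.16 TPM and Ntn5 at 3.55 and 4.13 TPM. Of the exonic sequence of Ntn3, 1.74% is shared with Tbc1d24 (24.2 and 31.2 TPM) on the same strand. For Ntn5, 23.4% is shared with Sec1 (0.44 and 0.54 TPM) on the opposite strand. The values of Ntn3 and Ntn5 are uncertain to that extent. The receptors of netrin-1 were higher: Unc5a was at 45.1 and 40.8 TPM, Unc5d at 16.3 and 18.7 TPM, Unc5c at 13.4 and 13.0 TPM, Unc5b at 6.38 and 7.22 TPM and Dcc at 8.13 and 9.17 TPM. Unc5 receptors carry immunoglobulin and thrombospondin repeats outside the cell and mediate repulsion, and Dcc mediates attraction. The netrin-Gs are lipid-anchored relatives that act at synapses through the Lrrc4 proteins and not through Dcc. Ntng2 was at 33.2 and 39.1 TPM and Ntng1 at 10.8 and 13.4 TPM. Their known partners were at 42.8 and 44.1 TPM (Lrrc4, which binds netrin-G2) and 52.1 and 62.5 TPM (Lrrc4c, which binds netrin-G1). For Ntng2, 14.0% of the exonic sequence is shared with a noncoding gene on the same strand, and its counts were split between genes by the quantification.

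The mice were then set against each other. The difference is replicate 2 minus replicate 1 in log2 CPM after TMM scaling (edgeR), over genes whose counts averaged 50 or more. Each error is a counting error only, since each mouse gave 1 library. Of 68 members with enough counts, 17 differed by more than 1.2-fold, which is 25%, beside 27.4% of all 14122 genes. Of the 68, 10 were more than 1.2-fold higher in replicate 2, beside 14.3% of all genes tested. Another 7 of the 68 were lower, beside 13.1% of all genes tested. One member passed 2-fold, where the background was 1.25%. The median difference of the members was 0.02, and that of all genes was -0.02. The median absolute difference was 0.14 for the members and 0.15 for all genes. In 17 members the deposited credibility intervals of the TPM, whose level is not stated, did not overlap between the mice (background 19.8%). These shares lie near the background. The intervals do not always hold the deposited TPM. For Sema3f in replicate 2 they ran from 7.20 to 10.6 TPM, beside a level of 6.86 TPM.

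**Figure D2:**
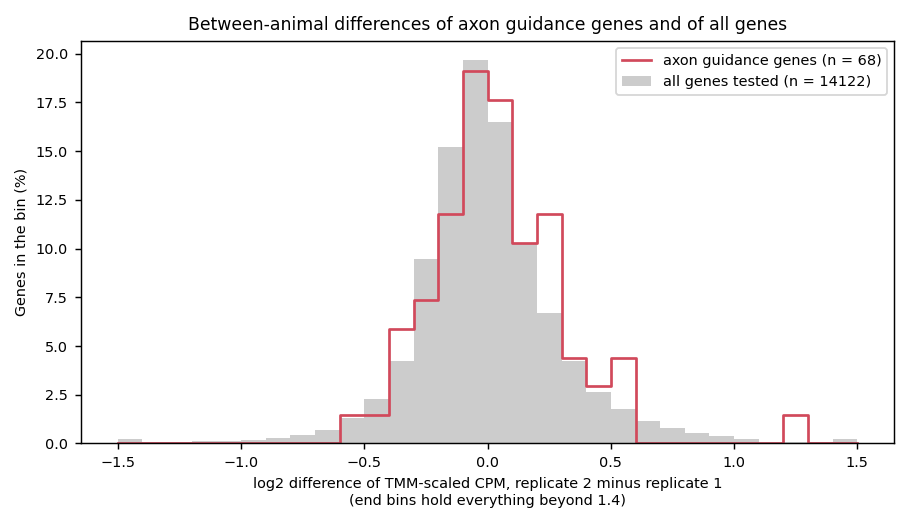
Distribution of the log2 difference between the mice (horizontal axis) for all 14122 genes tested (grey bars) and for the 68 members (line), as a percentage of genes per bin of 0.1 (vertical axis). Both centre near 0, at medians of -0.02 and 0.02, and 1 member, Epha8, lies beyond a difference of 1.

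Epha8, an EphA receptor at low level in this tissue, was the member past 2-fold. It had 162 counts in replicate 1 and 432 in replicate 2, a log2 difference of 1.27 ± 0.13 (counting SE) or 2.42-fold (chromosome 4, 136929419 to 136956816, minus strand). The second quantification gave 1.22 and scaling to the spike-in RNAs gave 1.55. Its credibility intervals were 1.59 to 2.16 TPM and 4.35 to 5.25 TPM and did not meet. The absolute difference was larger than that of 99.4% of genes tested. Epha8 has 1 annotated transcript, so isoform assignment did not enter. A few markers of other tissue moved the same way: Prkcd, a thalamic marker, was at 4.39 and 9.22 TPM, and Opalin, an oligodendrocyte marker, at 3.80 and 8.78 TPM. The whole thalamic list summed to 56.2 and 60.8 TPM with 3 of 4 markers higher in TPM, and the oligodendrocyte list to 1534 and 1647 TPM with 5 of 5 higher. Their part in the result was not tested. In bulk tissue, fewer cells of a type and less RNA per cell cannot be told apart.

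The other members higher in replicate 2 were Robo3, Sema6c, Slit2, Sema3f, Ntn3, Efna2, Ephb6, Ntng1 and Sema3b. Robo3 had 256 and 417 counts (log2 0.57 ± 0.11) and Slit2 had 1422 and 2231 counts (log2 0.51 ± 0.05). Ephb6 had 2377 and 3360 counts (log2 0.36 ± 0.04). These 3 had credibility intervals that did not overlap. Sema6c had 341 and 542 counts (log2 0.53 ± 0.10), and its intervals did not overlap either. Its TPM differed more, by 1.06 on the log2 scale. Its TPM in replicate 2 included short noncoding transcripts, Sema6c-205 and Sema6c-211, on 35.2 and 9.93 counts. Sema3f (log2 0.46 ± 0.12), Ntn3 (log2 0.43 ± 0.12) and Efna2 (log2 0.38 ± 0.19) had overlapping intervals. So had Ntng1 (log2 0.31 ± 0.08) and Sema3b (log2 0.27 ± 0.22), and for Sema3b the counting interval includes 0.

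The 7 members lower in replicate 2 were Efnb1, Plxnc1, Plxna1, Slit3, Sema3a, Nrp1 and Ephb2. Efnb1, a transmembrane ephrin encoded on the X chromosome, had 401 and 303 counts (log2 -0.54 ± 0.11). Plxnc1, the Sema7a receptor, had 2447 and 1956 counts (log2 -0.46 ± 0.04). Nrp1 had 883 and 775 counts (log2 -0.32 ± 0.07). In these 3 the credibility intervals did not overlap, and in the other 4 they did. Plxna1 (log2 -0.35 ± 0.03), Slit3 (log2 -0.33 ± 0.05), Sema3a (log2 -0.33 ± 0.06) and Ephb2 (log2 -0.29 ± 0.09) were of a similar size to Nrp1. In TPM, 6 of the 17 members did not pass 1.2-fold: the log2 difference was -0.02 for Plxna1, -0.18 for Slit3, 0.04 for Sema3a, -0.24 for Nrp1, -0.16 for Ephb2 and 0.12 for Sema3f. The result for lower members depends on the scaling: with spike-in scaling all 7 stayed negative, but 1 of them, Efnb1 at -0.26, stayed past 1.2-fold.

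The 3 members with the highest mean TPM and Plxna4 differed little. The difference was 0.00 ± 0.03 for Epha4, -0.01 ± 0.03 for Robo2, -0.06 ± 0.03 for Sema7a and -0.04 ± 0.02 for Plxna4. The credibility intervals of Epha4 did not overlap, however (62.2 to 68.3 and 69.1 to 76.2 TPM), and with spike-in scaling Epha4 (0.28) and Robo2 (0.27) passed 1.2-fold. With 2 mice, individual variation and handling cannot be told apart.

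**Figure D3:**
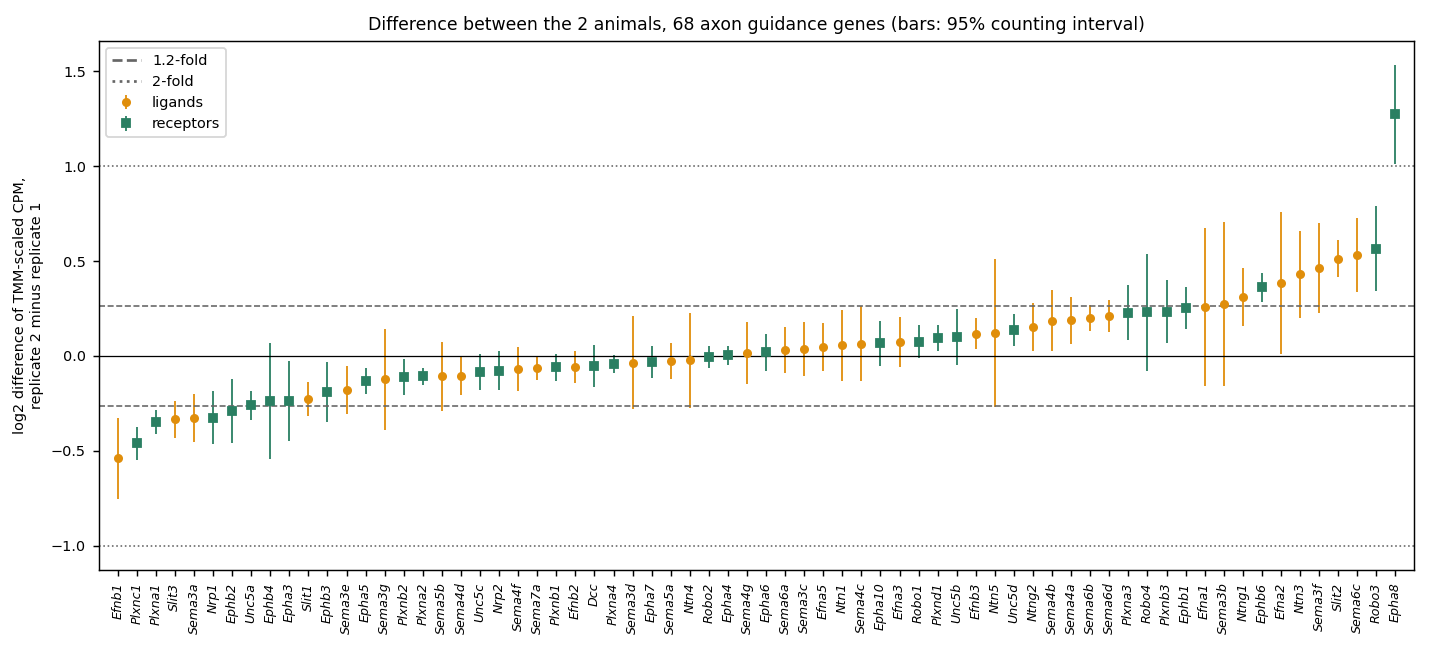
Log2 difference of TMM-scaled CPM, replicate 2 minus replicate 1 (vertical axis), for the 68 members that averaged 50 counts or more, ordered by value; bars are 95% counting intervals and lines mark 1.2-fold and 2-fold. Epha8 lies alone above the 2-fold line, and the members run from Efnb1 at -0.54 to Epha8 at 1.27.

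Co-receptors, effectors and modulators of the same pathways were listed separately, 73 genes of which 72 are annotated under the listed symbol and 69 reached 1 TPM in both mice, where 58.9% of all protein-coding genes did. The highest were Chn1, a Rac GTPase-activating protein downstream of Epha4 (712 and 701 TPM), Cfl1, the actin-severing cofilin (645 and 682 TPM), and Dpysl2, a mediator of Sema3a signalling (337 and 337 TPM). Nrcam was at 228 and 225 TPM and Mical2 at 216 and 175 TPM. All of these lay above every ligand and receptor. Of the 70 with enough counts, 6 differed by more than 1.2-fold, which is 8.57%, beside 27.4% of all genes tested. Whether the list differs from all genes was not tested. The share of all genes depends on depth, and was 20.1% over genes averaging 200 counts or more. Dpysl4 was the single one higher in replicate 2 (log2 0.32 ± 0.07). Mical2 (log2 -0.42 ± 0.02), an actin-oxidising enzyme, Spsb4 (log2 -0.38 ± 0.20), Met (log2 -0.27 ± 0.14) and Gpc1 (log2 -0.27 ± 0.04), a heparan sulfate proteoglycan that binds Slits, were lower, as was Farp2 (log2 -0.26 ± 0.10). For Spsb4 the counting interval at 95% includes 0.

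Transcript forms were compared next, in both deposited transcript quantifications. The transcript with the highest TPM was the same in both mice and both tables for 50 of the 64 detected members with more than 1 transcript. That is 78.1%, beside 68.6% of all such protein-coding genes. In 7 of the 64 a leading transcript was not protein coding, which is 10.9%, beside 16.5%. The 14 members without a stable leader were Epha5, Ephb2, Ntng1, Robo1, Robo2, Robo4, Sema3b, Sema4a, Sema4b, Sema4g, Sema6a, Sema6d, Slit1 and Slit2. In Epha5, Sema3b and Sema4a each of the 4 estimates named another transcript, and 19 transcripts are annotated for Sema4a. In Robo2 the leader was Robo2-202 in replicate 1 and Robo2-211, an incomplete coding model, in replicate 2 of the first table, and in the second table it was Robo2-207, a noncoding transcript of 430 nt, in both mice. Robo2-207 took 15.2% and 15.5% of the TPM in the first table on 53.6 and 65.1 counts, against 37.3% and 36.6% in the second. Transcripts under 1000 nt took 11.2% and 13.0% of the members' summed TPM in the first table, and 17.2% and 19.8% in the second. In the first table the median detected member had 4.65% of its TPM and 0.413% of its counts on them. Levels of single short transcripts, and of genes with a large share on them, are therefore uncertain here.

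Epha7 is known for forms that lack the kinase domain. Epha7-201, with a coding sequence of 2994 nt, took 23.9% and 16.4% of the gene's TPM in replicates 1 and 2. Epha7-202, with 1830 coding nt, took 35.1% and 51.8%, and Epha7-204, with 1878, took 19.2% and 11.9%. The short form Epha7-202 thus exceeded the long form in both mice and in the second table too, where the values were 31.6% and 43.5% against 25.3% and 17.6%. In counts the long form led in replicate 1 (1000 against 615) and the short form in replicate 2 (1008 against 761). The 3 forms share their first 1798 coding bases and then part. The sequences show where, on the plus strand of chromosome 4 in mm10, with the last shared bases in lower case and the first bases of each form's own coding end in capitals (positions chr4:28947528-28947587, chr4:28946219-28946250 and chr4:28966523-28966582).
Epha7-201: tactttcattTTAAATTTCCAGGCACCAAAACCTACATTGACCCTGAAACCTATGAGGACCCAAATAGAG
Epha7-202: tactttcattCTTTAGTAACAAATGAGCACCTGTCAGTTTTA
Epha7-204: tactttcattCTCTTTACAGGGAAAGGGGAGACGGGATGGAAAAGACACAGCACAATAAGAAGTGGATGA

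An exon counted as an alternative coding exon where 1 complete coding transcript of a member held it and another skipped it, each with 8% or more of the gene's TPM in both mice and both tables. The rule gave 16 exons in 10 members, and the length of all 16 is a multiple of 3, so that skipping keeps the reading frame. Inclusion is the TPM of all transcripts that hold the exon as a share of the TPM of those that hold or skip it. It is an estimate from transcript levels, since reads across junctions were not used here. It differed by less than 10 percentage points between the mice in both tables for 13 exons, and by less than 10 points between the tables for 14.

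**Figure D4:**
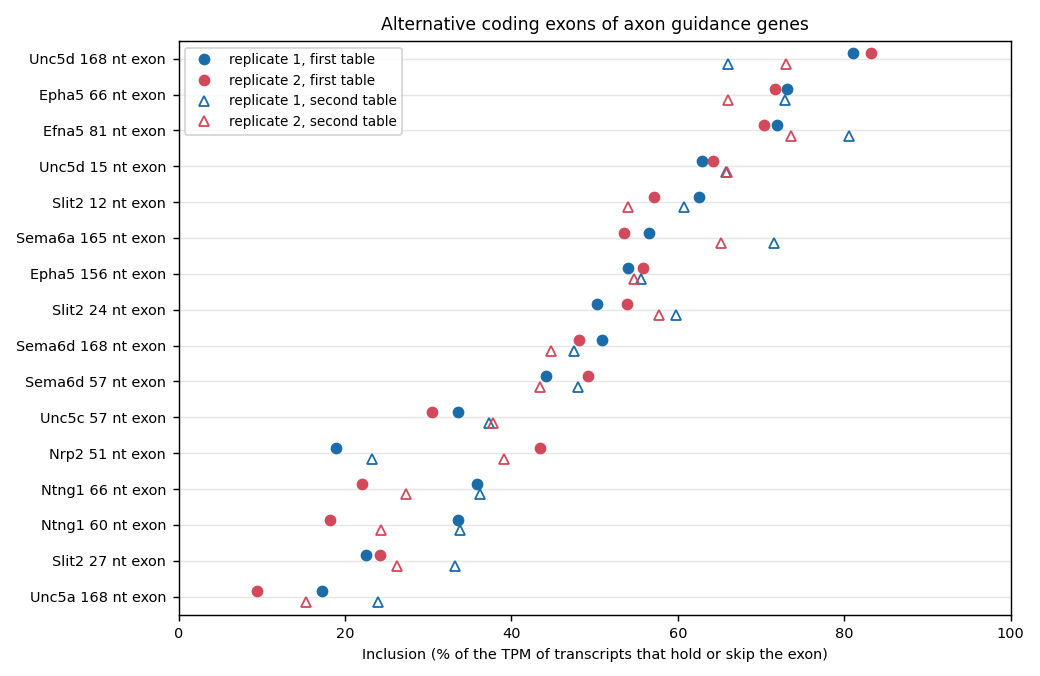
Inclusion of the 16 alternative coding exons (horizontal axis, percent of the TPM of transcripts that hold or skip the exon), with 1 row per exon, colour for the mouse and filled or open symbols for the first or second table. The 168 nt exon of Unc5d lies at the right and that of Unc5a at the left, and the mice separate most for Nrp2 and Ntng1.

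The receptors Unc5a and Unc5d have an exon of 168 nt at the same place, the sixth of the transcript, and used it in opposite ways. In Unc5d it was included at 81.0% and 83.2% (66.0% and 73.0% in the second table). In Unc5a it was included at 17.2% and 9.41% (23.9% and 15.3%), so that the form without it carried most of the gene's level, with 2427 and 2448 counts against 545 and 266. The exons are shown in capitals with 10 flanking bases of the transcript on each side, because they are related: 126 of 168 aligned positions, 75.0%, are identical. They lie at chr13:54997193-54997360 (plus strand) and chr8:28760725-28760892 (minus strand).
Unc5a: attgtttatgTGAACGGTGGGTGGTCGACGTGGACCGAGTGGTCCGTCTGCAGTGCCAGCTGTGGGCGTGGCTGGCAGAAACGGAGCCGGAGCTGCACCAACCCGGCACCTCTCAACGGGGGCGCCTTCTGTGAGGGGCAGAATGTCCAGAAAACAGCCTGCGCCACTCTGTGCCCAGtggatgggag
Unc5d: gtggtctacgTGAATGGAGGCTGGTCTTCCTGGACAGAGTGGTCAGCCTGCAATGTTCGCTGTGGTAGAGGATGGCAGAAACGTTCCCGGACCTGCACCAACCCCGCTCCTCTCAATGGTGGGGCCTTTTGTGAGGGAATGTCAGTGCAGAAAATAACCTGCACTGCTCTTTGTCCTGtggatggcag

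Both Unc5c and Unc5d have a further short exon downstream. In Unc5c an exon of 57 nt was included at 33.6% and 30.5% (37.3% and 37.7% in the second table). In Unc5d an exon of 15 nt was included at 62.9% and 64.2% (65.8% and 66.0%). Each value differed little between the mice. The exons, in capitals with flanks in lower case, lie at chr3:141786857-141786913 (plus strand) and chr8:28725148-28725162 (minus strand).
Unc5c: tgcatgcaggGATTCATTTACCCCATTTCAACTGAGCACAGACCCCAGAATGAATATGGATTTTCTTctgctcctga
Unc5d: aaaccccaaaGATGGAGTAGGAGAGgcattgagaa

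Slit2 has 3 short alternative exons, shown in transcript order because each adds only a few residues to a large secreted ligand. The 12 nt exon was included at 62.5% and 57.2%, the 24 nt exon at 50.3% and 53.9% and the 27 nt exon at 22.5% and 24.2%. In the second table the values were 60.8% and 54.0%, 59.8% and 57.8%, and 33.2% and 26.2%. The gene's level differed between the mice, and these shares stayed within 8 points of each other. The exons lie at chr5:48191003-48191014, chr5:48220967-48220990 and chr5:48263641-48263667, plus strand.
Slit2 12 nt exon: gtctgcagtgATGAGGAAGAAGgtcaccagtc
Slit2 24 nt exon: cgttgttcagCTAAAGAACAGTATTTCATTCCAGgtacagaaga
Slit2 27 nt exon: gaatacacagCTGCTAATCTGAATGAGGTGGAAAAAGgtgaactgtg

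In 2 genes the mice differed most in estimated exon use. Inclusion of a 51 nt exon of Nrp2, near the end of the coding sequence, was 18.9% and 43.5% (23.3% and 39.1% in the second table). For Ntng1, inclusion of a 60 nt exon was 33.5% and 18.2% (33.8% and 24.3%) and of the neighbouring 66 nt exon 35.8% and 22.0% (36.2% and 27.4%). Nrp2-202, which holds the Nrp2 exon, had 149 and 349 estimated counts, and Nrp2-203, which lacks it, had 214 and 0. Whether the mice or the assignment of reads to transcripts made this difference was not tested. The leading transcript, Nrp2-205, counted neither as holding nor as skipping the exon. The inclusion values of Nrp2 therefore leave it out. The exons lie at chr1:62812534-62812584 (plus strand), chr3:109839120-109839179 and chr3:109841510-109841575 (both minus strand).
Nrp2: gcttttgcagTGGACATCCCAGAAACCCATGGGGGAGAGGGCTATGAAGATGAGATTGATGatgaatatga
Ntng1 60 nt exon: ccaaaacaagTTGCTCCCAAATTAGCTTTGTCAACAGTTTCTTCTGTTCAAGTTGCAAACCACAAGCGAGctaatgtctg
Ntng1 66 nt exon: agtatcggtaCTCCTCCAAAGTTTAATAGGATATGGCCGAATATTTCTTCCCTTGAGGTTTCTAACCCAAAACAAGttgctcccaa

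The remaining alternative exons were close to even use or mostly included. In Epha5 a 66 nt exon was included at 73.2% and 71.7% and a 156 nt exon at 54.1% and 55.9%. In Sema6d a 57 nt exon was included at 44.2% and 49.2% and a 168 nt exon at 50.9% and 48.1%, and in Sema6a a 165 nt exon at 56.5% and 53.5% (71.6% and 65.2% in the second table). The 81 nt exon of Efna5 was included at 71.9% and 70.3%. This last value is less certain, because the transcript that skips the exon, Efna5-202, is 643 nt long and had 48.5 and 59.3 counts. That exon lies at chr17:62613316-62613396 (minus strand) and is printed because it separates the long and short forms of the ephrin.
Efna5: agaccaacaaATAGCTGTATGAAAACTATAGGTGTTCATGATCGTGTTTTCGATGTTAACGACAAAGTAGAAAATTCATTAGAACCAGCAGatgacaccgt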

How the data were processed

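Total RNA was sequenced from 2 mice, 300 ng input each, with a directional kit and ERCC spike-ins, per the labels. Both labels carry the same donor entry, and the animal numbers are the ground for treating the mice as separate. The authors deposited, per sample, gene and transcript tables with expected counts, TPM, isoform percentages and credibility bounds (first table), and a second transcript table with estimated counts and TPM. The credibility bounds are a score from the authors' quantification model, of unstated level, per the file headers. The deposited notes give mm10 and annotation M21. The programs used are not named in these sources, nor is whether counting used strand, and CAST/EiJ reads were assigned on the reference genome. Nothing shows that the mice were processed in separate batches.

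The members and lists were chosen with earlier results of these data known. The limits of 8% of TPM, 1000 nt and 10 points, the levels of 20 and 50 TPM and the exons printed were chosen after values were seen, and the exon rule was then narrowed once to set the alternative ends of Epha7 apart (an exon counts where at most 2 neighbouring exons are skipped). Members were matched on symbol. Levels are the deposited TPM. Differences between the mice are log2 CPM from the deposited expected counts with edgeR 4.0.16 (R 4.3.3), TMM scaling and a prior count of 1, over genes averaging 50 counts or more. With 1 library per mouse no test was made and no p-value computed. Counting errors cover counting only and intervals are at 95%. Counts of 68 of the 71 coding members were whole, and 3 were split between genes (Ntng2, Plxnc1 and Sema3a). A chi-square over 20162 genes gave 13.2 per degree of freedom, so the libraries are not copies of each other. Text names up to 3 leading members and the lowest of each family, the 10 largest differences, Epha4, Plxna4, Epha8 and members without a stable or coding leading transcript. Further members are named for completeness, chosen after their values were seen. Exon and coding sequences come from the GENCODE M21 transcripts on GRCm38 (mm10). The alternatives were other scalings (DESeq2 1.42.0 size factors, library totals, spike-ins), count minimums, a prior count of 5, other detection limits, rescaled TPM, the second table and leaving out each mouse. Python 3.11.15 with pandas 2.3.3, numpy 2.4.6 and matplotlib 3.10.9 was used. The calculation was tested on simulated data, in a version of the test that was enlarged after a smaller draw had missed its tolerance, with the calculation itself unchanged.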

Additional observations from a re-analysis of the deposited data

How the results depend on the processing

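No paired analysis was possible because the 2 mice form a single group. Of 71 members, 57 were lower and 14 higher in the second table. The receptor sum was 675 TPM in the second table, 1514 TPM when rescaled over nuclear protein-coding genes and 626 TPM without transcripts under 1000 nt, an alternative chosen after seeing the data. The ligand sum was 547, 1238 and 541 TPM in the same order. Leaving out each mouse gave 707 to 755 TPM for the receptors, 563 to 632 TPM for the ligands and 68 to 68 members detected. The number detected was 54 at 5 TPM and 69 at 0.5 TPM, in the second table and after rescaling.

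Spike-in scaling shifted all differences by 0.28: the median of the members became 0.29, that of all genes 0.25, and 38 members passed 1.2-fold (37 higher, 1 lower), or 19 relative to the median of all genes. The cause was not tested. With library totals 15 were higher and 6 lower. The other settings gave 15 to 21 members past 1.2-fold. With a minimum of 10 counts the share was 26.1% of the members, beside 36.9% of all genes. With a minimum of 200 counts it was 24.2% of the members, beside 20.1% of all genes. All 17 called members kept their sign under every scaling and in the second table, where 15 of the 17 stayed past 1.2-fold. The same leading transcript was found for 54 detected members, those with 1 transcript included, and for 58 and 61 within the first and second table and 42 at 5 TPM. Depth limits what can be said of members under 100 counts, such as Sema3b.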
